A study of Drosophila melanogaster with 8 samples.

Results

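The copies described here are the annotated insertions of 5 families of non-LTR retrotransposons, Doc, F, BS, BS3 and Cr1a, on chromosomes 2, 3, 4 and X of the Drosophila melanogaster genome (release 6). They were taken from the Ensembl annotation by family name and numbered 390 of the 5809 annotated transposable element copies on these chromosomes. The families held 80 copies of Doc, 86 of F, 43 of BS, 29 of BS3 and 152 of Cr1a, and together they covered 863906 bp, or 0.645% of these chromosomes. Each copy was set beside the ATAC-seq peaks of 2 cell types. ATAC-seq reads out where a transposase can cut the DNA, so a peak marks a stretch of accessible chromatin. PGC stands for primordial germ cells, the embryonic precursors of eggs and sperm, which were sorted as GFP-positive cells from embryos laid overnight at 25°C, labelled as late embryos, by flies of the genotype Vas::EGFP. The somatic cells were the GFP-negative cells of the same embryos and therefore a mixture of tissues, so that all samples shared the Vas::EGFP transgene, the temperature and the collection. There were 2 replicates per cell type, and the deposited peaks were called on the average of both, so that the lists carry no spread between replicates and no test between PGC and somatic was made. At start sites, 11 of 11 germ cell marker genes carried a PGC peak but 4 a somatic one. Of 12 somatic marker genes, 12 had a peak in both lists. These genes were chosen with earlier results of these data known, so the counts describe the lists and do not test the sorting labels.

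Non-LTR retrotransposons move by copying their RNA into DNA at the place of insertion. They carry no terminal repeats: an internal promoter near the 5′ end starts their transcription, and the 3′ end finishes in a stretch rich in A. Because copying begins at the 3′ end and often stops early, many insertions lack their 5′ part. Doc, F, BS and BS3 belong to the jockey clade, while Cr1a is an older CR1-like family. In Drosophila, the transposons of the germline are held down mainly by the piRNA pathway.

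The sequences below are 151 bases centred on a summit, the highest point of a peak, and read 5′ to 3′ along the element, from the RefSeq release 6 assembly. They are shown because each was found in no other place of the assembly, and because they set the strongest PGC summit of the families beside weaker ones. Capitals mark the letters of the motifs that were searched on both strands. One is GAGAG, the core of the sequence bound by the GAGA factor, which reads CTCTC on the other strand. The other motif found in these windows is TGATAA, a sequence of the type bound by GATA factors. The first window, from the Doc copy in CHKov1, lay at chr3R:25328651-25328801 on the minus strand, 201 bp from the 5′ end of the copy, and reached 164.3 RPKM in PGC. The second, from a Cr1a copy in an intron of Neu2, lay at chr3L:21485451-21485601 on the plus strand, 324 bp from the 5′ end, and reached 91.2 RPKM in PGC. The third came from the 3′ part of an F copy in an intron of Myo81F (chr3R:2104051-2104201, minus strand, 58.4 RPKM in PGC). The other windows came from intergenic copies: a BS copy (chr2L:21409701-21409851, minus strand, 53.6 RPKM in PGC), a BS3 copy (chr3L:20712301-20712451, minus strand, 56.7 RPKM in PGC) and a Cr1a copy (chr4:933201-933351, minus strand, 64.0 RPKM in somatic cells). RPKM is read coverage scaled by length and by the number of mapped reads, and the lowest peak of either list was at 50 RPKM.
Doc{}CHKov1[Doc1420]: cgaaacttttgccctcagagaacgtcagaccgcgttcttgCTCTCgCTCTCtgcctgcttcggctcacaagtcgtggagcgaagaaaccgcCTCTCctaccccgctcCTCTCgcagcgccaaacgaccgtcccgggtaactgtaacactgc
Cr1a{}1081: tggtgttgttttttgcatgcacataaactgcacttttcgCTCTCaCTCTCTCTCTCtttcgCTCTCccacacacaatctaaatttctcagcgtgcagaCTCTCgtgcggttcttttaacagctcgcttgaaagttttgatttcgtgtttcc
F{}RR48318: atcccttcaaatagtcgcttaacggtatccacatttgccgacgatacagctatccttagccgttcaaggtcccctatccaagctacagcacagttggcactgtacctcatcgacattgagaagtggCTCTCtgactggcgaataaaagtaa
BS{}497: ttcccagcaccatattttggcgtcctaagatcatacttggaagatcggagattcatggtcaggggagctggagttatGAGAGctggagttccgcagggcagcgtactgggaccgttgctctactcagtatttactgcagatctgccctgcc
BS3{}5863: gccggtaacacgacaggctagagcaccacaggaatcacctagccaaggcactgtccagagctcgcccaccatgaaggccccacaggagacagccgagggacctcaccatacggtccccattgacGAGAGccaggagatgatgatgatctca
Cr1a{}1594: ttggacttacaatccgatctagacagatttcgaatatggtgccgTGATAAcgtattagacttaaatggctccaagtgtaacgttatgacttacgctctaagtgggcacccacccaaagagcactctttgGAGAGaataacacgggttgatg
The Doc window held GAGAG 4 times, at 59.6% G and C bases, and the Cr1a window in Neu2 held it 7 times with overlaps counted, at 43.7% G and C bases. The F, BS and BS3 windows held it 1 time each, and the Cr1a window on chromosome 4 held 1 GAGAG and 1 TGATAA.

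Peaks of both cell types fell on Doc and F more often than on BS, BS3 and Cr1a. A PGC peak shared at least 1 bp with 135 of the 390 copies (34.6%, exact 95% interval 29.9 to 39.6%) and a somatic peak with 132 (33.8%, 29.2 to 38.8%), beside 17.4% and 14.8% of all annotated copies. All intervals given here cover counting error only, and copies of a family share sequence and are not independent. In Doc, 56 of 80 copies carried a PGC peak (70.0%, 58.7 to 79.7%) and 58 a somatic peak (72.5%, 61.4 to 81.9%). In F, 51 of 86 copies carried a PGC peak (59.3%, 48.2 to 69.8%) and 55 a somatic peak (64.0%, 52.9 to 74.0%). BS lay close to the background, with 9 PGC and 11 somatic copies of 43 (20.9% and 25.6%), and its exact intervals include the shares of all copies. BS3 had 5 PGC copies and 1 somatic copy of 29 (17.2% and 3.45%), and Cr1a had 14 and 7 of 152 (9.21% and 4.61%), with exact intervals that lie below the shares of all copies. The same copies were largely hit in both lists: 110 copies had a peak of each, 25 a PGC peak only and 22 a somatic peak only. A summit of both lists lay inside 110 copies (28.2%), beside 10.7% of all annotated copies.

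**Figure D1:**
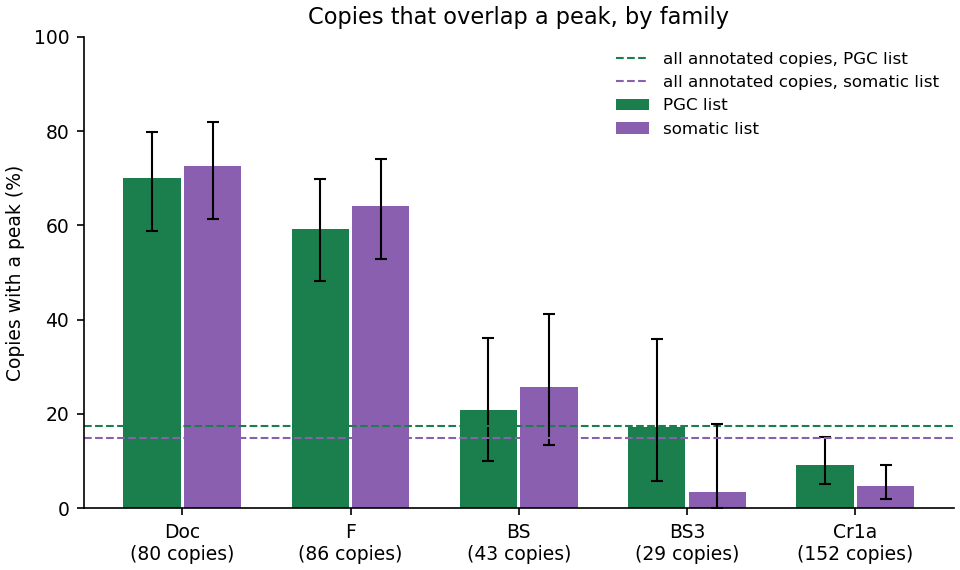
Share of copies with a peak (percent, at least 1 bp shared) in each family, for the PGC list (green) and the somatic list (purple); error bars are exact 95% binomial intervals and dashed lines give the share among all 5809 annotated copies. Doc (70.0% and 72.5%) and F (59.3% and 64.0%) stand above both lines, and Cr1a (9.21% and 4.61%) below them.

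Length went with these shares. Of the 110 copies of at least 4000 bp, 92 carried a PGC peak (83.6%) and 93 a somatic peak (84.5%). In copies from 500 bp to under 4000 bp the shares were 25.5% and 24.2% of 153, and in copies under 500 bp they were 3.15% and 1.57% of 127. Among the other annotated copies of at least 4000 bp the shares were 52.8% in PGC and 61.6% in somatic cells, of 777. Doc and F copies were long, with medians of 4709 and 4220 bp, whereas BS and Cr1a copies had medians of 145 and 901 bp. Counted per length, summits inside the copies came to 28.0 per 100 kb in PGC and 42.0 in somatic cells, beside 21.5 and 24.2 in all annotated copies and 33.0 and 36.5 in the other non-LTR families. The whole chromosomes held 14.6 and 13.0 peaks per 100 kb. The 247 PGC summits inside the copies belonged to 244 peaks, 1.25% of the PGC peaks, and the 370 somatic summits to 363 peaks, 2.08% of the somatic peaks. A summit can lie in overlapping annotated copies and then counts for each.

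In PGC, almost every long Doc copy carried a peak at the same place close to its 5′ end, and most of these peaks were high. This was seen in the 41 Doc copies of at least 4000 bp that overlapped no other annotated copy, whose median length was 4720 bp. Positions were counted from the 3′ end, which truncation leaves in place. Between 4200 and 4400 bp from the 3′ end, here called the 5′ zone, 37 of the 41 copies had a PGC summit (90.2%, 76.9 to 97.3%). Their heights ran from 50.5 to 164.3 RPKM with a median of 97.3 RPKM. Of these summits, 29 reached 80 RPKM or more, and 8 did not. The summits lay 201 to 496 bp from the 5′ end of their copy, with a median of 408 bp. In the somatic list, 13 of the 41 copies had a summit there (31.7%, 18.1 to 48.1%), at 50.3 to 59.0 RPKM with a median of 53.8 RPKM. All of these 13 copies also had the PGC summit, 24 copies had the PGC summit only, and 0 had the somatic summit only.

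**Figure D2:**
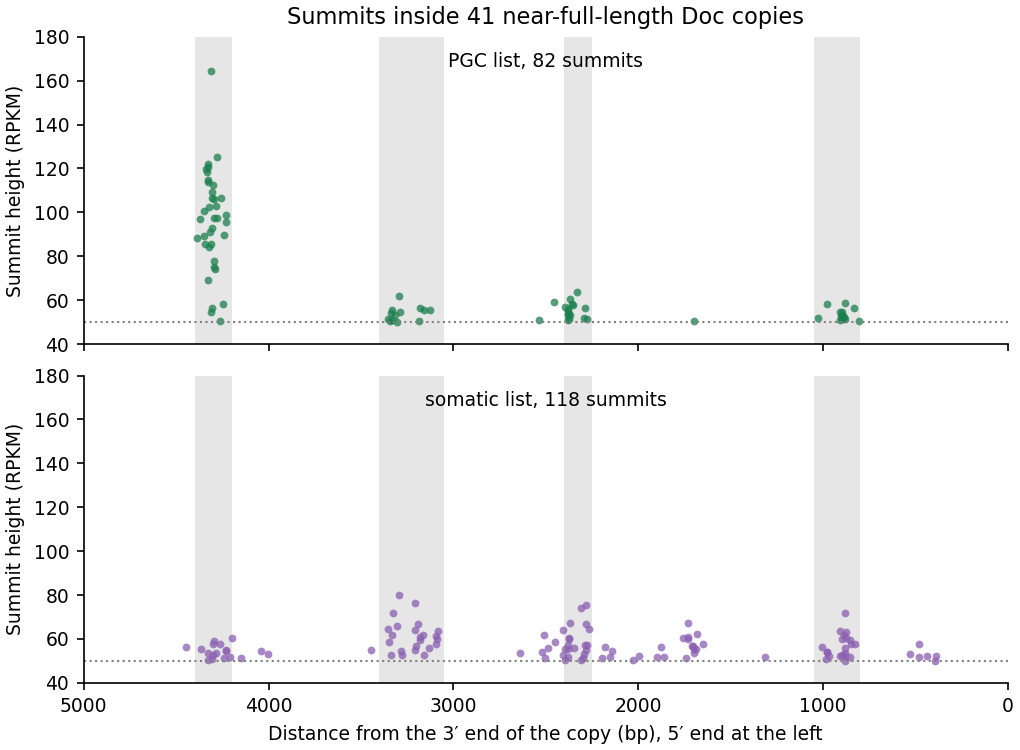
Height of every summit (RPKM) inside the 41 Doc copies of at least 4000 bp that overlap no other copy, against its distance from the 3′ end (bp, 5′ end at the left), for the PGC list (top) and the somatic list (bottom); grey bands are the 4 zones and the dotted line is the lowest height of the lists, 50 RPKM. The PGC summits of the 5′ zone reach up to 164.3 RPKM with a median of 97.3, and the other zones of either list have medians of 52.6 to 60.8 RPKM.

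Where a PGC peak with its summit in the 5′ zone overlapped a somatic peak, the PGC peak was the higher in 17 of 17 pairs, with a median ratio of PGC to somatic height of 1.95 (1.52 to 2.85). Over all 8353 overlapping pairs of the lists the median ratio was 1.21, and over the 146 pairs inside the copies of the 5 families it was 0.974. The heights of the lists need not be on a single scale, since coverage was scaled by mapped reads only. Within the PGC list, however, 14 Doc copies had a summit both in the 5′ zone and between 800 and 1050 bp from the 3′ end, and the 5′ summit was the higher in 14 of these, with a median ratio of 1.69. Within the somatic list, 8 copies had both, the 5′ summit was the higher in 4, and the median ratio was 0.986. The zones were drawn after the positions of the summits had been seen, so their shares are a description.

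The other Doc summits also recurred at fixed places, with low heights and in either list. The 3′ zone, from 800 to 1050 bp, held a PGC summit in 14 copies and a somatic summit in 21, with median heights of 52.6 and 55.7 RPKM. A middle zone, from 2250 to 2400 bp, held them in 15 and 19 copies (54.9 and 57.2 RPKM). A further zone, from 3050 to 3400 bp, held them in 13 and 23 copies (54.0 and 60.8 RPKM). In these 3 zones the median ratio of overlapping PGC and somatic peaks was 0.969, 0.944 and 0.870. Only 3 of the 82 PGC summits in the 41 copies lay outside the 4 zones, whereas 42 of the 118 somatic summits did. These counts depend on which places were drawn as zones: between 1650 and 1800 bp, where none was drawn, lay 11 somatic summits in 11 copies, with a median of 56.9 RPKM, and 1 PGC summit.

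Doc copies that had no part in drawing the zones were few but could be set beside them. In 7 Doc copies of at least 4000 bp that overlapped another annotated copy, 4 of 7 PGC summits and 1 of 14 somatic summits lay in the 5′ zone. Among 19 shorter Doc copies of 1000 bp or more that overlapped no other copy, distances from the 3′ end do not serve for the 5′ part, since a copy that holds it can be shorter than the long ones. Counted from the 5′ end, 3 of them had a PGC summit like that of the long copies: Doc{}6512 with 113.8 RPKM at 357 bp, Doc{}1733 with 107.6 RPKM at 417 bp and Doc{}1407 with 98.6 RPKM at 370 bp. All 30-base windows within 100 bp of these summits also occur in the first 600 bp of a long copy, and GAGAG occurs there 4 times in each. Since these letters are shared, a peak there may not be told apart from one on a long copy. The 3 summits are therefore not independent of those of the long copies. These 3 copies held 893 to 895 windows of that 5′ part, and the other 16 held 0 to 24. Of the 16, only Doc{}1048 had a PGC summit within 500 bp of its 5′ end, at 50.2 RPKM and on letters that do not match. In the somatic list, Doc{}1733 had 58.3 RPKM and Doc{}1407 had 52.4 RPKM at the same place as in PGC, and Doc{}6512 had no summit there. Doc{}1362 with 72.7 RPKM and Doc{}966 with 56.6 RPKM also had a somatic summit within 500 bp of the 5′ end, on letters that do not match. The 3′ zone, which can be counted from the 3′ end in these copies, held 5 of their 11 PGC and 8 of their 28 somatic summits. This comparison was added after the summits had been seen.

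The 3 Doc copies with the highest PGC summits all had them in the 5′ zone. The highest was Doc{}CHKov1[Doc1420] (chr3R:25324412-25328927, minus strand, 4516 bp), at 164.3 RPKM, above 92.5% of all PGC peaks. It lies in CHKov1, on the strand of that gene, and shares bases with an annotated exon. A Doc insertion in CHKov1 is known from natural populations, where it has been linked to resistance to a virus. The PGC peak was 900 bp wide and ran 423 bp past the 5′ end of the copy, which lies 389 bp from a start site of CHKov1. The other PGC peaks of the 5′ zone were at most 400 bp wide, with a median of 300 bp over all 37. The part of the flanking sequence in this height was not tested. The highest somatic summit in the copy was at 61.7 RPKM. Next came Doc{}RR48348 (chr2L:23288997-23293720, minus strand), in intergenic pericentromeric sequence, at 125.1 RPKM in PGC and 60.8 RPKM in somatic cells. The third was Doc{}130 (chrX:14778097-14782817, minus strand), intergenic at 1235 bp from a start site of Ag5r2, at 121.9 and 71.8 RPKM. The highest somatic summits of Doc lay elsewhere in the element: at 79.9 RPKM in Doc{}350 in an intron of MRP, which encodes a membrane transporter, at 76.4 RPKM in Doc{}163 in an intron of CG14190, and at 75.6 RPKM in the intergenic Doc{}RR48382. These 3 summits were 1421, 1510 and 2441 bp from the 5′ end, and the same copies had PGC maxima of 106.0, 106.5 and 114.9 RPKM.

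The 5′ zone of Doc was rich in G and C and carried a cluster of GAGAG. Its bases were 58.0% G and C, beside 41.1% outside the zones. Each of the 37 PGC summits there had GAGAG within 100 bp, with a median of 4 occurrences (2 to 4) on both strands, overlapping ones included, and 36 of them had at least 3. Among all 19504 PGC peaks, 35.3% had GAGAG within 100 bp of the summit and 10.2% had at least 3 occurrences, and GAGAG was also found in 29.8% of 13945 promoters of protein-coding genes (250 bp before to 50 bp after the start). In the other zones it was found at 0 of the 14 PGC summits of the 3′ zone, 0 of the 15 of the middle zone and 4 of the 13 between 3050 and 3400 bp, where 13 of 23 somatic summits had it, with at most 1 occurrence each. GAGAG was likewise present in the somatic 5′ zone summits, with the same median of 4. Since the copies are near-identical, their matches are not separate observations, and a match describes letters, not binding. Of the other motifs searched, TATCGATA was found at 0 of the 244 PGC peaks whose summit lay in the copies, CAGGTA at 3.28%, TGATAA at 5.74% and CAGCTG at 10.2%, beside 3.20%, 6.20%, 7.19% and 14.4% of all PGC peaks.

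The 4 long Doc copies without a PGC summit in the 5′ zone were among those with the most sequence of their own. This was measured as the share of 150-base windows inside a copy that occur at a single place of the assembly, on either strand. Of the 34 long Doc copies with under 15% of such windows, 34 had the PGC summit, with a median of 97.4 RPKM, and 12 had the somatic summit. Of the 7 copies with 15% or more, 3 had the PGC summit: Doc{}CHKov1[Doc1420] at 164.3 RPKM, Doc{}RR41919 at 58.4 RPKM and Doc{}RR42049 at 54.6 RPKM. The 5′ zone of these 7 copies still held 3 or 4 GAGAG. The value of 15% was chosen after the copies had been seen, and what sets the 7 copies apart was not tested. Of the 4 copies without it, 3 were pericentromeric, 3 were long enough to span the whole 5′ zone, and 1 had any PGC summit inside.

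In F elements the highest summits lay near the 3′ end in both lists. The zone drawn there was also the widest, at 500 bp against 150 and 200 bp, and the counts per zone were not scaled by width. The 37 F copies of at least 4000 bp that overlapped no other copy had a median length of 4696 bp. This 3′ zone ran from 450 to 950 bp from the 3′ end, with a PGC summit in 23 copies (62.2%, 44.8 to 77.5%) and a somatic summit in 28 (75.7%, 58.8 to 88.2%). The heights there ran from 50.7 to 93.7 RPKM in PGC with a median of 59.9, and from 51.1 to 96.8 RPKM in somatic cells with a median of 63.8. The stretch of F from 4200 to 4400 bp, which corresponds in place to the Doc 5′ zone, held a PGC summit in 9 copies (24.3%) and a somatic summit in 12 (32.4%), with medians of 53.3 and 53.6 RPKM. These shares are of all 37 copies, of which 31 span the whole stretch. This stretch had 57.7% G and C bases, close to that in Doc, and 9 of its 9 PGC summits had GAGAG within 100 bp, with 2 occurrences each. A middle zone, from 2400 to 2550 bp, held a summit in 7 PGC and 10 somatic copies. GAGAG was also found at 7 of 7 PGC summits of this middle zone and at 14 of 25 of the 3′ zone, with at most 1 occurrence each. CAGCTG, the E-box form bound by several basic helix-loop-helix factors, lay within 100 bp of 20 of 92 PGC summits in F (21.7%), beside 14.4% of all PGC peaks. It was found at 9 of 9 PGC summits from 4200 to 4400 bp, 6 of 7 of the middle zone and 0 of 25 from 450 to 950 bp. Since the copies share sequence, these matches are not separate observations. Overlapping pairs in the 3′ zone of F had a median ratio of PGC to somatic height of 0.952, and PGC was the higher in 8 of 23. In 14 shorter F copies of at least 1000 bp, 8 of 10 PGC summits and 8 of 16 somatic summits lay in the 3′ zone.

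**Figure D3:**
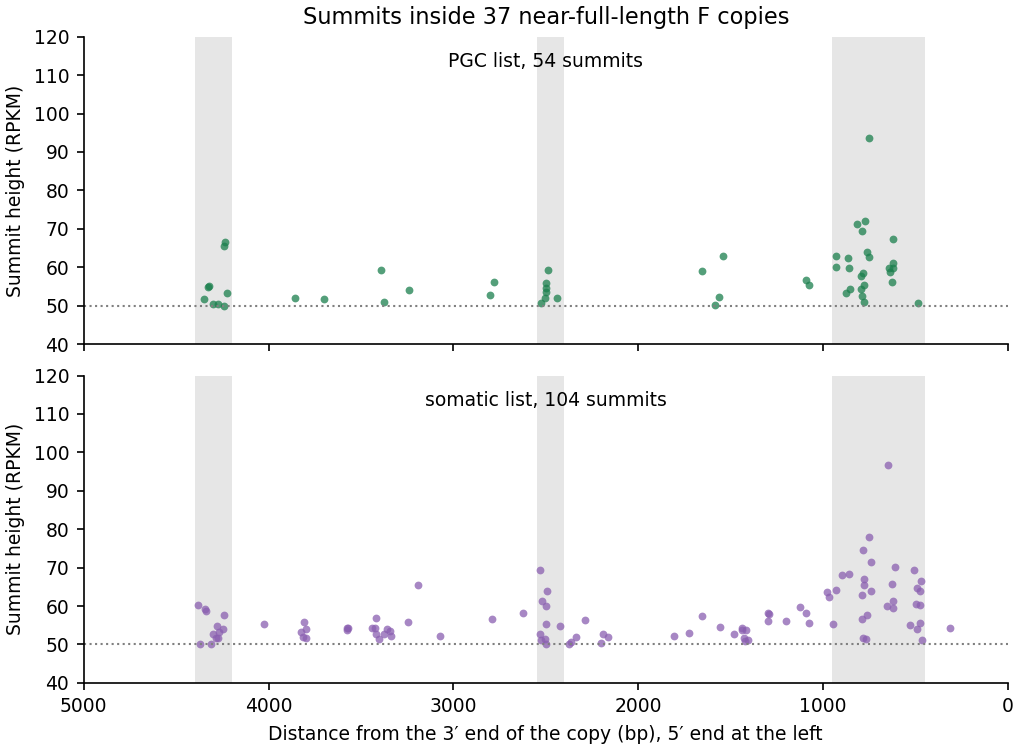
Height of every summit (RPKM) inside the 37 F copies of at least 4000 bp that overlap no other copy, against its distance from the 3′ end (bp, 5′ end at the left), for the PGC list (top) and the somatic list (bottom); grey bands are the 3 zones and the dotted line is 50 RPKM. The highest summits of both lists, 93.7 and 96.8 RPKM, lie in the 3′ zone.

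The F copy with the highest summits of its own was F{}763 (chr2R:7196627-7201336, minus strand), in an intron of pk, a planar cell polarity gene, with 93.7 RPKM in PGC and 96.8 RPKM in somatic cells, 749 and 649 bp from its 3′ end. The other F copies that led either list did so where another annotated element overlapped them. In F{}1709 (chr2R:4987398-4995013), in an intron of Ir41a, the summits of 94.5 RPKM in PGC and 108.3 RPKM in somatic cells lay in an inner copy of Rt1b. In F{}2237 the PGC summit of 102.3 RPKM lay in an inner 1360 element, and in F{}656 the somatic summit of 99.6 RPKM lay in an inner Stalker2 element. In all, 218 of the 247 PGC and 338 of the 370 somatic summits had the named copy as the innermost annotated element. By the sum of both heights, the leading 5 copies were Doc{}CHKov1[Doc1420], F{}1709, Doc{}130, F{}763 and Doc{}RR48382.

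Most summits in Doc and F stood on sequence that the assembly holds several times. The names of the lists say that they were made from uniquely mapping reads, and the methods read here name no such filter for them. In Doc, 98 of 102 PGC summits and 157 of 161 somatic summits had no 150-base window over them, inside the copy, that occurs at a single place of the assembly. In F these were 70 of 79 and 131 of 142. In the Doc 5′ zone they were 34 of 37 PGC summits, in the Doc middle zone 15 of 15, where 0.390% of the windows were unique and the flanks were at least 2250 bp away. The window was set at 150 bases, the length of a read. A peak on such a stretch cannot be told apart from a peak on another copy with the same letters, and how reads were placed there was not tested. The genome of the Vas::EGFP flies may also hold other insertions than the reference, which was not tested either.

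**Figure D4:**
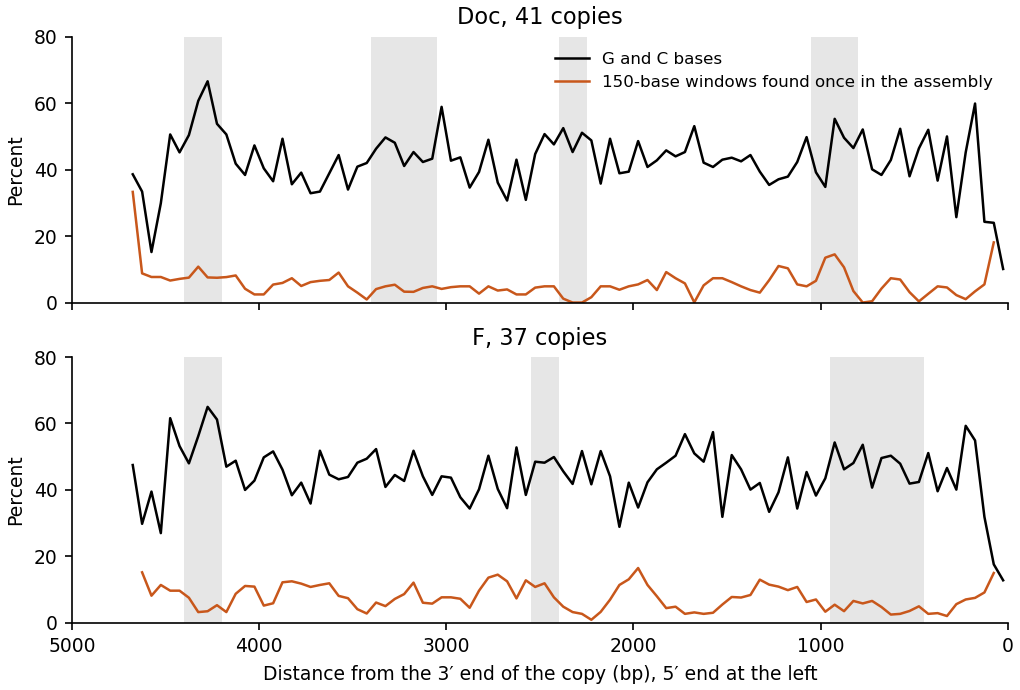
Share of G and C bases (black) and share of 150-base windows found at a single place of the assembly (orange), both in percent and in 50-bp steps, against the distance from the 3′ end (bp) in the 41 Doc copies (top) and the 37 F copies (bottom) of at least 4000 bp; windows are placed by their centre and grey bands are the zones. Both families have a G and C maximum in the 5′ zone (58.0% and 57.7% over the zone), and unique windows average 5.32% in Doc and 7.53% in F.

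Among copies that can be told apart, peaks were rare. Of the 227 copies in which at least 50% of the windows were unique, 22 carried a PGC peak (9.69%) and 10 a somatic peak (4.41%). Of the 115 copies with under 10% unique windows, 84 carried a PGC peak and 91 a somatic peak. Among other annotated copies with under 10% the shares were 32.8% and 42.6% of 862, and with 90% or more they were 6.49% and 2.33% of 3729, beside 6.90% and 1.97% of 203 in the 5 families. Unique copies were mostly short: the 203 had a median length of 421 bp. Of the copies of at least 4000 bp, 67 of 72 with under 10% unique windows and 2 of 4 with 90% or more carried a PGC peak, and the same numbers carried a somatic peak. In copies shorter than the window, it ran on into the flank.

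In BS, long copies carried most of the PGC peaks, and shorter ones had peaks as well. Of 7 copies of at least 4000 bp, 6 carried a PGC peak and 6 a somatic peak, and of 6 copies from 500 bp to under 4000 bp these were 2 and 4. All 6 BS copies of at least 4000 bp that overlapped no other copy had a PGC summit and 5 had a somatic summit, with medians of 58.2 and 61.7 RPKM. The highest PGC summits were 78.4 RPKM in BS{}707 in an intron of EcR, the ecdysone receptor gene, 76.8 RPKM in the intergenic BS{}1038 and 74.2 RPKM in BS{}1260 in an intron of CG43060. The highest somatic summits were 87.6 RPKM in BS{}1292 in an intron of CG6959, 86.4 RPKM in BS{}1038 and 80.2 RPKM in BS{}1260. In overlapping pairs, PGC was the higher in 5 of 16, with a median ratio of 0.871. TGATAA lay within 100 bp of 9 of 23 PGC summits in BS (39.1%) and 6 of 28 somatic summits (21.4%), beside 7.19% and 7.31% of all peaks, and no 5′ maximum of the kind seen in Doc appeared: 2 of 22 PGC summits and 0 of 25 somatic summits lay within 500 bp of the 5′ end.

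BS3 peaks were few and low. The 7 PGC summits ran from 50.9 to 56.7 RPKM and met no somatic peak, and the single somatic summit, in BS3{}4175, was at 52.3 RPKM. The highest PGC summits were those of BS3{}5863 (56.7 RPKM), BS3{}3004 (55.5 RPKM) and BS3{}4609 (54.6 RPKM), the last in an intron of AGO3, which encodes an Argonaute protein of the piRNA pathway. All 3 lie below the median of the PGC list, 62.1 RPKM.

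Cr1a had the lowest share of copies with a PGC peak among the 5 families. A PGC summit of 80 RPKM or more lay in 5 of its 152 copies (3.29%), beside 6.15% of all annotated copies. Of these 5, Cr1a{}1081 in Neu2 (chr3L:21485202-21488805, plus strand, 94.2% unique windows) had the second highest PGC summit of the family, 91.2 RPKM, and no somatic peak. Its PGC peak, on the sequence printed above, thus stood on letters found at no other place of the assembly. The summits of 109.5 RPKM in Cr1a{}1703, on chromosome 4 at 278 bp from a start site of Crk, and of 86.5 RPKM in Cr1a{}1607, in an intron of nAChRalpha4, lay in inner copies of 1360 and gypsy8. In the somatic list, the leading Cr1a summits were 67.5 RPKM in Cr1a{}1700, inside an inner gypsy8 copy, 64.0 RPKM in Cr1a{}1594 and 59.2 RPKM in Cr1a{}6093, both on chromosome 4. In PGC, Cr1a{}6093 reached 86.0 RPKM, and Cr1a{}1594 reached 65.9 RPKM in its own sequence and 80.1 RPKM in an element that overlaps it.

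Most summits in the copies were low, and the high ones were mainly those of Doc in PGC. The median height was 56.8 RPKM for PGC summits and 55.7 RPKM for somatic summits inside the copies, beside 62.1 and 56.9 RPKM for all peaks of the lists. In PGC, 47 of the 390 copies held a summit of at least 80 RPKM (12.1%), beside 6.15% of all annotated copies, and 38 of the 47 were Doc copies. In the somatic list, 6 of the 390 copies did, beside 196 of all 5809 annotated copies, and 0 of the 6 were Doc. The third quartile of the PGC heights was 96.2 RPKM in Doc, 78.9 RPKM in Cr1a, 72.1 RPKM in BS and 62.7 RPKM in F. By the median, the 19 PGC summits in Cr1a were the highest, at 65.1 RPKM beside 58.5 RPKM in Doc, and 12 of the 19 lay in an overlapping element.

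Counted over all copies of at least 1000 bp, summits were seldom at the 3′ end. Within 500 bp of the 3′ end lay 10 of 244 PGC summits (4.10%, 1.98 to 7.41%) and 26 of 365 somatic summits (7.12%, 4.71 to 10.3%), where 13.5% of the bases lie. Within 500 bp of the 5′ end lay 70 PGC summits (28.7%, 23.1 to 34.8%) and 39 somatic summits (10.7%, 7.71 to 14.3%). Of these 70 PGC summits, 49 were in Doc. In Doc, 47.6% of 103 PGC summits (37.6 to 57.6%) and 11.2% of 161 somatic summits (6.76 to 17.1%) were at the 5′ end, where 12.1% of its bases lie. In F these shares were 14.7% and 11.5%. In the other non-LTR families, which include jockey and Rt1b, they were 13.8% of 378 and 10.6% of 424 summits.

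In Doc and F, a larger share of the euchromatic than of the pericentromeric copies had a peak. Pericentromeric sequence was set by round borders, from 22 Mb on 2L and X, from 23 Mb on 3L, up to 5.6 Mb on 2R and up to 4.2 Mb on 3R. Annotated copies filled 20.4% of the bases on the pericentromeric side of the 2L border and 4.33% on the other side. On 3R, where the sides differed least, they filled 8.45% and 3.39%. Of 172 euchromatic copies, 86 carried a PGC peak (42.3 to 57.7%) and 92 a somatic peak (53.5%, 45.7 to 61.1%). Of 192 pericentromeric copies, 43 carried a PGC peak (22.4%, 16.7 to 29.0%) and 37 a somatic peak (19.3%, 13.9 to 25.6%), and of 26 copies on chromosome 4 they were 6 and 3. Among annotated copies outside the 5 families, the PGC shares were 17.1% in euchromatin, 16.5% in pericentromeric sequence and 9.26% on chromosome 4. Their somatic shares were 16.3%, 12.1% and 3.52%. The 5 families were spread unevenly: 105 of the 192 pericentromeric and 30 of the 172 euchromatic copies were Cr1a. Within Doc, 43 of 56 euchromatic and 13 of 24 pericentromeric copies carried a PGC peak, and 45 and 13 a somatic peak. Within F, 30 of 40 and 20 of 41 carried a PGC peak, and 34 and 20 a somatic peak. The exact intervals of the places overlapped for Doc in both lists and for F in PGC, but not for F in somatic cells (70.2 to 94.3% and 32.9 to 64.9%). Among copies of the 5 families with at least 4000 bp, 61 of 66 euchromatic copies (92.4%, 83.2 to 97.5%) and 30 of 43 pericentromeric copies (69.8%, 53.9 to 82.8%) carried a PGC peak, and the pericentromeric copies had more unique windows, with a median of 15.5% against 2.64%. Within Doc these were 33 of 33 and 12 of 15 long copies, and within F 21 of 25 and 15 of 20, with intervals that overlap in each family. Whether place or sequence goes with the peaks cannot be told apart here. Cr1a showed no such order, with a PGC peak in 2 of 30 euchromatic, 7 of 105 pericentromeric and 5 of 17 chromosome 4 copies.

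The PGC summit in the 5′ zone of Doc was found on both sides of the borders. It was present in 27 of 28 euchromatic long copies (96.4%, 81.7 to 99.9%), with a median of 97.5 RPKM, and in 10 of 13 pericentromeric ones (76.9%), with a median of 86.9 RPKM. The somatic summit there was present in 10 and 3 of these copies, at medians of 54.8 and 51.3 RPKM. The exact intervals of the euchromatic and the pericentromeric shares overlap in each list.

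Most copies lay away from gene starts and outside exons. Of the 390 copies, 12 touched an exon, 186 lay in introns and 192 between genes. A PGC peak was found on 35.5% of the intronic and 32.3% of the intergenic copies, and a somatic peak on 34.9% and 31.2%. Within 1000 bp of a start site lay 47 copies, of which 21 carried a PGC peak (44.7%) and 18 a somatic peak (38.3%). Among the 343 copies farther away the share was 33.2% in either list. These shares pool the families. In Doc, 9 of 13 near and 47 of 67 farther copies carried a PGC peak, and in F 3 of 6 and 48 of 80. In BS these were 3 of 12 and 6 of 31, in BS3 1 of 2 and 4 of 27, and in Cr1a 5 of 14 and 9 of 138. A somatic peak lay on 10 and 48 of these Doc copies, 4 and 51 of F, 2 and 9 of BS, 0 and 1 of BS3, and 2 and 5 of Cr1a. The other annotated copies were not split by this distance. Among Doc copies in genes, 14 of 20 on the strand of the gene and 18 of 27 on the opposite strand carried a PGC peak, and 11 and 22 a somatic peak.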

How the data were processed

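Peaks of both cell types came from the lists deposited by the authors. Per the paper's methods and the labels, reads were trimmed (cutadapt 4.2), aligned to release 6 (Bowtie2 2.5.1), freed of duplicates (SAMtools 1.17) and turned into RPKM coverage outside blacklisted regions (deepTools 3.5.4), the replicates were averaged, and peaks were called on the average with MACS2, at a cutoff set by hand. The zones along Doc and F, and the split at 15% of unique windows, were set after the data had been seen. The deposited score of a peak is 10 times the coverage at its summit, and it was divided by 10. RPKM scaling lets a library with more reads outside peaks have lower peaks. The depth behind a peak is not given in the lists. Columns 7 to 9 hold only 0 and were not used.

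Copies, genes and start sites came from Ensembl release 115 (BDGP6.54), sequences from the RefSeq assembly of the same release 6. A copy had a peak when they shared at least 1 bp. Near-full-length copies had at least 4000 bp. Windows of 150 bases were counted over the whole assembly on both strands, and 100 of 100 windows drawn at random gave the same answer in a direct search. On simulated data, 200 of 200 planted overlaps were recovered at their planted distance. The copies named were the 3 with the highest summit of each list in each family, and the 5 with the highest sum of both heights. Sequences were printed for the highest summit of a family whose window occurs 1 time in the assembly, and other copies were picked for naming with their values known. The families, motifs, marker genes and lists were chosen with earlier results of these data known. Intervals are exact (Clopper-Pearson) 95% intervals. Alternatives covered the overlap, the peak height, copy length, overlapping copies, window uniqueness, the distance from an end and the borders. Python 3.11.15 with numpy 2.4.6, pandas 2.3.3, scipy 1.17.1 and matplotlib 3.10.9 was used. The 4 small RNA libraries of ovaries were not analysed here.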

Additional observations from a re-analysis of the deposited data

How the results depend on the processing

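The count of copies with a peak depended on the height asked for and on the sequence of the copy. With peaks of at least 60 RPKM it was 88 in PGC and 87 in somatic cells, and with at least 80 RPKM 51 and 6. It was 22 and 10 in copies with at least 50% of unique 150-base windows, and 19 and 6 with 50-base windows, an alternative chosen after seeing the data. Other overlap rules, copies of at least 500 bp and copies that overlap no other copy kept it within 1.5 times. The share of summits near the 3′ end was 0.820% in PGC and 0.548% in somatic cells within 250 bp. Within 1000 bp, a distance added after seeing the data, it was 30.7% and 29.3%, since the 3′ zones of Doc and F then count. With the borders moved 0.5 Mb towards the centromere, 27.5% of 102 pericentromeric copies had a somatic peak, beside 38.5% in euchromatin. The median height of the highest peak on each copy was 67.4 RPKM in PGC and 62.3 RPKM in somatic cells. No paired analysis was possible because both replicates of a cell type were averaged before peaks were called, and for the same reason no replicate could be left out. Peaks in near-identical copies cannot be given to a single copy.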
